A study of Mus musculus with 8 samples.

Results

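The transcripts described here are 9 genes of transforming growth factor beta (TGF-beta) signalling in the mouse hair follicle: the ligand genes Tgfb1, Tgfb2 and Tgfb3, the latent TGF-beta binding protein genes Ltbp1, Ltbp2 and Ltbp3, and the target genes Ctgf, Cyr61 and Tgfbi. They were taken by gene symbol, and all 9 were listed in each of 3 RNA sequencing tables, among 22431 named genes in both smaller tables and 33365 in the largest. Bmpr1a encodes a receptor through which cells sense bone morphogenetic proteins (BMPs). It was deleted in bulge stem cells (HFSCs) or in transit-amplifying cells (TACs), their dividing progeny in the hair bulb, and 8 libraries of mixed-strain mice were sequenced. HFSCs of K15-CrePGR mice at postnatal day 68 gave 1 library with Bmpr1a deleted (cKO; Bmpr1a fl/fl, like every deleted group here) and 1 control library labelled Het. TACs of Shh-CreER mice at postnatal day 68 gave 1 cKO and 1 Het library. At postnatal day 80, hair bulb TACs of the K15-CrePGR line gave the KO libraries 64 and 84 and the WT libraries 52 and 57. K15-CrePGR is an inducible Cre driven by the keratin 15 promoter, which is active in bulge cells, so its TACs would have lost the receptor as descendants of such cells. Shh-CreER is an inducible Cre made by Shh-expressing cells, which in the follicle are a part of the hair matrix. The labels do not state induction times, the alleles of the Het and WT mice, whether controls carried Cre or whether mice were pooled.

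TGF-beta is secreted in a latent complex with its own propeptide, which Ltbp1 and Ltbp3 tether to the extracellular matrix; Ltbp2 is a matrix protein of the same family that does not bind the latent complex. Once freed, for example by integrins that contain the alpha v chain, TGF-beta signals through Tgfbr2 and Tgfbr1 to Smad2 and Smad3, a branch separate from that of Bmpr1a, which signals through Smad1 and Smad5. In the follicle, TGF-beta is known as a signal that helps bulge stem cells enter the growth phase against BMP, which holds them quiescent. Ctgf and Cyr61 are secreted matricellular proteins of the CCN family and respond both to TGF-beta and to the mechanically regulated factors YAP and TAZ, which act through TEAD proteins. Tgfbi is a secreted adhesion protein named for its induction by TGF-beta.

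The proximal promoters of 7 of the 9 genes were matched in RefSeq (GRCm38.p6, 250 bases before to 50 after the start), in 8 windows because Ltbp1 has a pair of starts; those of Tgfb3 and Ctgf were not printed. The Smad-type motif CAGAC, searched on both strands, was found in 7 of the 8 windows and in 49.6% of 32851 mouse promoter windows. The palindrome GTCTAGAC, which joins a pair of inverted Smad-type sites, was in 0 of the 8 (0.213% of all windows). The TEAD-type motif GGAATG was in 1 of the 8, that of Cyr61 (14.7% of all), and the BMP-responsive motif GGCGCC was in 2, those of Cyr61 and Tgfbi (11.9% of all). The windows of the 3 matched genes with the lowest cKO values relative to Het in HFSCs are shown, a choice that rests on 1 library per genotype. Capitals mark every match to these 4 motifs on either strand, and each sequence runs 5′ to 3′ on the gene's strand. They are chr12:84876442-84876741 (minus strand) for Ltbp2, chr3:145649936-145650235 (minus strand) for Cyr61, listed in RefSeq as Ccn1, and chr13:56609336-56609635 (plus strand) for Tgfbi.
Ltbp2: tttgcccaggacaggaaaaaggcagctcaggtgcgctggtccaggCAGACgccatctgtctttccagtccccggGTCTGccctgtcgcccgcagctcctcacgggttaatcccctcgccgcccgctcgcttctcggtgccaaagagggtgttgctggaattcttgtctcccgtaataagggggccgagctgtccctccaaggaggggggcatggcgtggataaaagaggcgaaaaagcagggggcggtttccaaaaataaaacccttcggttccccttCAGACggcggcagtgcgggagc
Cyr61: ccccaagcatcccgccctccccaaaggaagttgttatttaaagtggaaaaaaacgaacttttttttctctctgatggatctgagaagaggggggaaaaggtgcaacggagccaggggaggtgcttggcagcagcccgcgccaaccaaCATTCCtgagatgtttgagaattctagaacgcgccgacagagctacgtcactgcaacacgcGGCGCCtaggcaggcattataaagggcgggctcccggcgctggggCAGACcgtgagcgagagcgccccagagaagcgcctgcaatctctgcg
Tgfbi: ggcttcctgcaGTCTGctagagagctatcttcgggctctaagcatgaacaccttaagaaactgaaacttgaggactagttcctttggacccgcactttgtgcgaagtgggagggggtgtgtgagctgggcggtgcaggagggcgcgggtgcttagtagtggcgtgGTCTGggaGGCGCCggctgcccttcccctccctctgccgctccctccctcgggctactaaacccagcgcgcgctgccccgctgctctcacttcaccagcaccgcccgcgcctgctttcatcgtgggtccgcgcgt
A match of letters is a description of the window and not evidence of binding.

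The libraries carried markers of the labelled cells. All 12 bulge markers, among them Krt15 and Cd34, were at or above 1 FPKM (a read count adjusted for the length of the transcript and the size of the library) in both HFSC libraries, and all 10 matrix TAC markers, among them Shh and Msx2, were so in all 6 TAC libraries. In HFSCs single bulge markers differed with the genotype in both directions. Krt15 was at 3075 FPKM in cKO and 7834 FPKM in Het, and Cd34 at 147 FPKM in cKO and 556 FPKM in Het. Tcf7l1 was at 26.2 FPKM in cKO and 8.47 FPKM in Het, and Sox9 at 120 FPKM in cKO and 59.4 FPKM in Het. The 12 bulge markers had a median difference of 0.07 on the log2(FPKM + 1) scale, with 6 higher and 6 lower in cKO. The matrix TAC markers summed to 124 FPKM in cKO, where all 10 reached 1 FPKM, and 47.9 FPKM in Het HFSCs. Of the 8 that averaged at least 1 FPKM there, 6 were higher and 2 lower in cKO. Lower were Msx2 (2.78 FPKM in cKO and 6.83 FPKM in Het) and Foxn1 (1.25 FPKM in cKO and 2.305 FPKM in Het). The hair shaft keratins summed to 21.8 FPKM in cKO and 0.978 FPKM in Het HFSCs, where Krt81 was at 0. TAC libraries also held other cells: 8 fibroblast markers summed to between 414 and 1592 FPKM there, against 15.7 FPKM in cKO and 20.0 FPKM in Het HFSCs. Bmpr1a was between 31.8 and 45.96 FPKM in all 8 libraries, and since these values cover the whole gene they do not check the deletion. In TACs the hair shaft markers moved with the genotype, and in the K15-CrePGR table the bulge markers did so too. The 12 bulge markers summed to 2293 FPKM in Shh-CreER cKO and 1724 FPKM in Het TACs, a sum made mostly of Krt5 and Krt14 and with a list median difference of 0.15, and to 2168 FPKM in KO 64 and 3131 FPKM in KO 84, against 781 FPKM in WT 52 and 843 FPKM in WT 57, where Krt24 was at 0. The hair shaft keratins summed to 504 FPKM in Shh-CreER cKO and 5354 FPKM in Het TACs, and to 843 FPKM in KO 64 and 663 FPKM in KO 84, against 2909 FPKM in WT 52 and 2421 FPKM in WT 57, with none at 0. The part of these shifts in the HFSC and TAC results that follow was not tested. The Y-linked gene Ddx3y was at 23.2 FPKM in HFSC cKO and 26.4 FPKM in WT 52 but under 1 FPKM in HFSC Het, KO 64, KO 84 and WT 57, while both Shh-CreER libraries held Ddx3y and Xist. Xist was at 3.98 FPKM in HFSC cKO and 68.9 FPKM in HFSC Het, so sex and genotype cannot be told apart in the HFSC pair. In K15-CrePGR TACs Xist was at 209.7 FPKM in KO 64 and 226.5 FPKM in KO 84, against 3.265 FPKM in WT 52 and 175 FPKM in WT 57. Sex markers were thus not balanced between KO and WT there. In these tables fewer cells of a type and less RNA per cell cannot be told apart.

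The 3 ligand genes were higher in the cKO stem cells. In HFSCs, Tgfb1, the most widely made ligand, was at 23.7 FPKM in cKO and 11.2 FPKM in Het, a ratio of 2.13. Tgfb2, the ligand associated with dermal papilla signalling to the follicle, was at 4.38 FPKM in cKO and 1.65 FPKM in Het, a ratio of 2.66. Tgfb3, an epithelial ligand best known from palate closure, was at 24.4 FPKM in cKO and 8.86 FPKM in Het, a ratio of 2.76. Each ligand thus stood at more than 2-fold its control level in the deleted stem cells, but on the log2(FPKM + 1) scale used for counting, Tgfb1 and Tgfb2 lay just over the 2-fold line (differences 1.02 and 1.02) and Tgfb3 further above it (1.37). There was 1 library per genotype in this table and in that of Shh-CreER, so those values have no test.

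In TACs, Tgfb2 and Tgfb3 were higher in the deleted libraries of both TAC tables, while Tgfb1 was so in K15-CrePGR TACs only. Tgfb3 was at 24.3 FPKM in Shh-CreER cKO and 2.87 FPKM in Het TACs, a ratio of 8.47. In K15-CrePGR TACs, Tgfb3 was at 6.29 FPKM in KO 64 and 6.90 FPKM in KO 84, against 0.586 FPKM in WT 52 and 0.631 FPKM in WT 57. Both KO libraries were thus about alike and far above both WT libraries, with means of 6.60 ± 0.433 FPKM in KO and 0.609 ± 0.0320 FPKM in WT TACs (SD, n = 2 each). The difference on the log2(FPKM + 1) scale was 2.24 (SE 0.218), and limma's test over all 13565 named loci gave adjusted p = 0.0866, which misses the threshold of 0.05. The WT mean of Tgfb3 was under the filter of 1 FPKM, so the gene entered the test through its KO values. Its K15-CrePGR entry (mm9 chromosome 12, 87165608 to 87419991) spans 254 kb and shares that interval with Ttll5 and Gm17691, whereas the annotated gene spans 22.3 kb in GENCODE vM21.

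Tgfb1 was lower in Shh-CreER cKO TACs, at 16.6 FPKM against 23.7 FPKM in Het. In K15-CrePGR TACs, Tgfb1 (mm9 chromosome 7, 26472020 to 26490096) was at 27.2 FPKM in KO 64 and 20.3 FPKM in KO 84, against 11.5 FPKM in WT 52 and 13.7 FPKM in WT 57. The K15-CrePGR groups did not overlap, and the difference was 0.85 (SE 0.206, limma adjusted p = 0.188). The direction for Tgfb1 therefore differed between both TAC tables. Tgfb2 was the lowest of the ligands in Shh-CreER TACs, at 2.76 FPKM in cKO and 1.71 FPKM in Het. In K15-CrePGR TACs, Tgfb2 (mm9 chromosome 1, 188446665 to 188529975) was at 6.27 FPKM in KO 64 and 6.32 FPKM in KO 84, against 2.25 FPKM in WT 52 and 2.82 FPKM in WT 57. The groups did not overlap here either, and the difference was 1.05 (SE 0.194, limma adjusted p = 0.139).

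**Figure D1:**
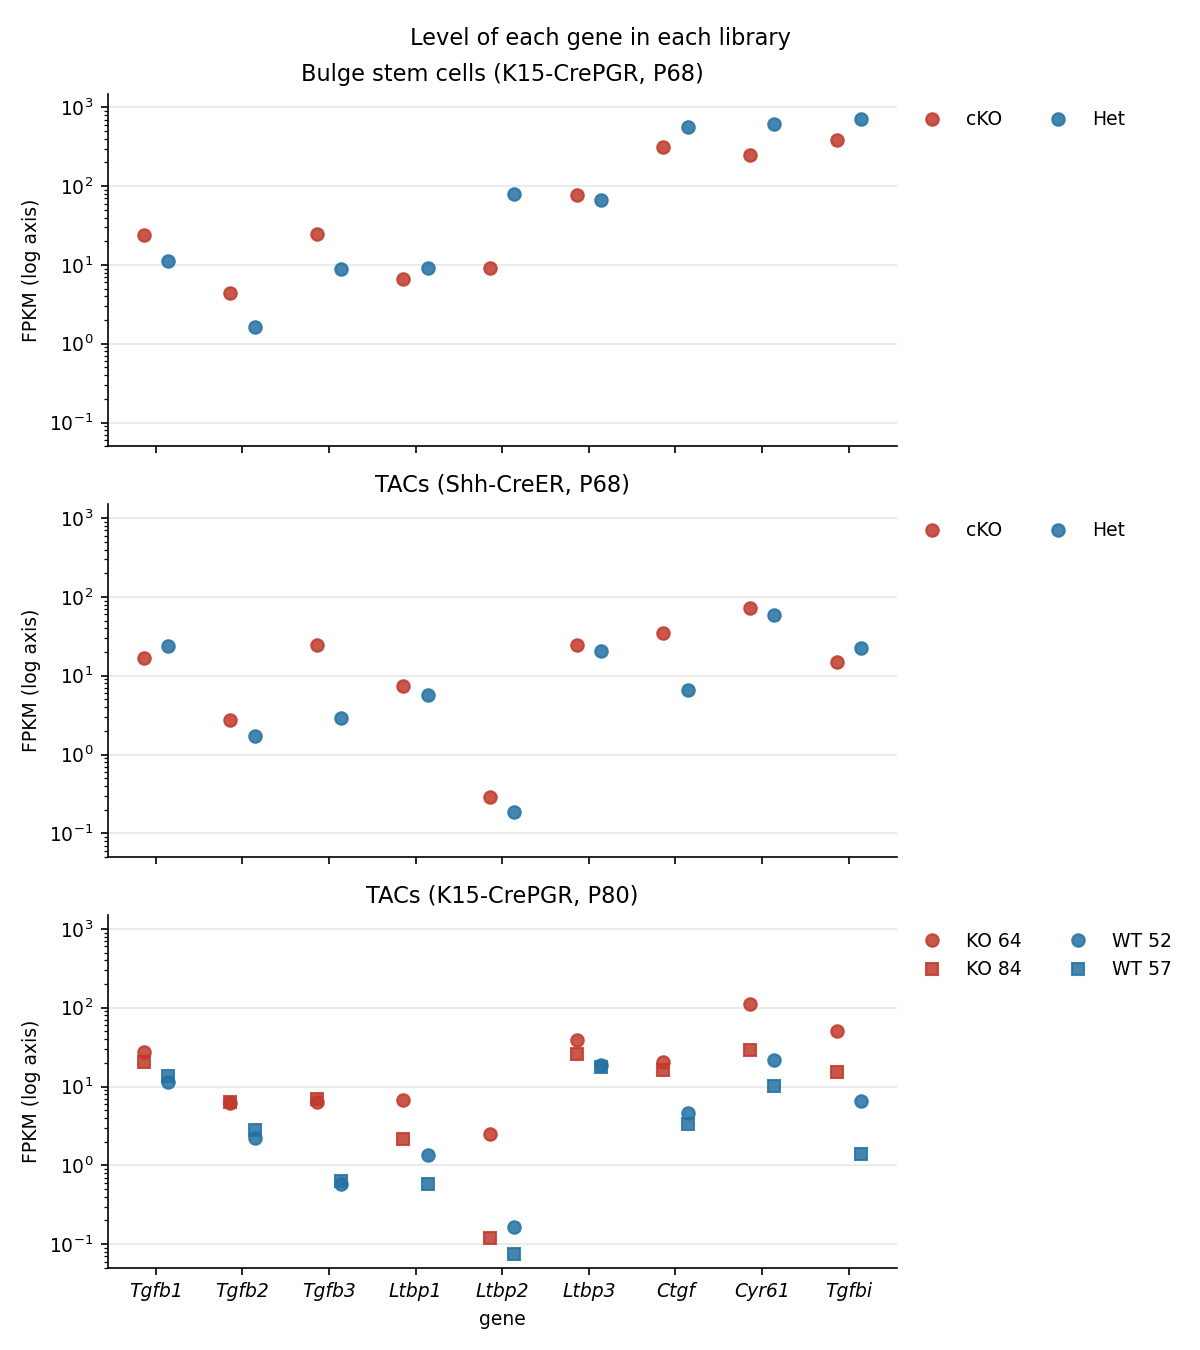
Level of each of the 9 genes in each of the 8 libraries, in FPKM on a log axis, with 1 panel per table, deleted libraries in red at the left of each pair and control libraries in blue at the right. Ctgf, Cyr61 and Tgfbi lie between 248 and 706 FPKM in stem cells. Ltbp2, drawn as its highest entry, is at 79.6 FPKM in HFSC Het and under 3 FPKM in every TAC library. With its 3 entries summed, Ltbp2 is at 4.002 FPKM in KO 64. The tables were deposited separately, so levels in different panels are not known to share a scale.

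The make-up of the ligand pool also differed between deleted and control TACs. Within a library, the shares of the summed FPKM of the 3 ligand genes do not depend on how libraries were scaled to each other. In Shh-CreER TACs, Tgfb3 made up 55.7% of the sum in cKO and 10.1% in Het, while Tgfb1 made up 38.0% in cKO and 83.8% in Het. In K15-CrePGR TACs, Tgfb3 made up 15.8% in KO 64 and 20.6% in KO 84, against 4.10% in WT 52 and 3.67% in WT 57. In both TAC tables, then, Tgfb1 was the main ligand transcript of the controls, and Tgfb3 held a larger share in the deleted libraries. In HFSCs the shares were closer, with Tgfb3 at 46.5% in cKO and 40.9% in Het, while the sum itself was 52.5 FPKM in cKO and 21.7 FPKM in Het. Tgfb2 held between 6.06% and 18.9% in all 8 libraries.

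Among the binding protein genes, Ltbp2 had the largest difference of the 9 genes in stem cells and Ltbp3 the smallest. In HFSCs, Ltbp2 was at 9.23 FPKM in cKO and 79.6 FPKM in Het, so that Het held 8.62 times the cKO level. Ltbp3, a tether of latent TGF-beta, was at 76.5 FPKM in cKO and 66.7 FPKM in Het. Ltbp1, the other tether, was at 6.55 FPKM in cKO and 9.23 FPKM in Het. Ltbp2 was the only one of the 3 that differed 2-fold in HFSCs (differences -2.98 for Ltbp2, 0.19 for Ltbp3 and -0.44 for Ltbp1). Of the FPKM summed over the 3 genes, Ltbp2 made up 10.01% in cKO and 51.2% in Het HFSCs, and Ltbp3 82.9% in cKO and 42.9% in Het HFSCs.

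Ltbp2 was scarce in TACs. It was at 0.292 FPKM in Shh-CreER cKO and 0.187 FPKM in Het TACs, below the filter of 1 FPKM. The K15-CrePGR table listed 3 entries of Ltbp2 at 1 position (mm9 chromosome 12, 86124161 to 86219082), and the highest of them was at 2.53 FPKM in KO 64 and 0.120 FPKM in KO 84, against 0.164 FPKM in WT 52 and 0.0753 FPKM in WT 57. This entry had a mean of 0.724 FPKM and was left out of the test; its groups overlapped, and KO 64 alone was high. With the 3 entries summed, Ltbp2 was at 4.002 FPKM in KO 64 and 0.579 FPKM in KO 84, against 0.164 FPKM in WT 52 and 0.134 FPKM in WT 57, with a difference of 1.29 and limma adjusted p = 0.372.

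Ltbp3 was the main binding protein transcript of TACs, with 76.2% of the summed FPKM of the 3 genes in Shh-CreER cKO and 77.8% in Het, and between 81.1% and 96.4% in the 4 K15-CrePGR libraries. It was at 24.3 FPKM in Shh-CreER cKO and 20.7 FPKM in Het TACs. In K15-CrePGR TACs, Ltbp3 (mm9 chromosome 19, 5740903 to 5771401, an interval of 30.5 kb against 17.6 kb for the gene in GENCODE vM21) was at 39.4 FPKM in KO 64 and 26.1 FPKM in KO 84, against 18.9 FPKM in WT 52 and 17.8 FPKM in WT 57. Both KO libraries lay above both WT libraries (difference 0.77, SE 0.236, limma adjusted p = 0.24), and without KO 64 the difference was 0.49. Ltbp1 was at 7.30 FPKM in Shh-CreER cKO and 5.73 FPKM in Het TACs. In K15-CrePGR TACs, Ltbp1 (mm9 chromosome 17, 75404907 to 75791852) was at 6.66 FPKM in KO 64 and 2.14 FPKM in KO 84, against 1.35 FPKM in WT 52 and 0.582 FPKM in WT 57. The groups did not overlap, yet KO 64 was at 3.11 times KO 84, and the difference was 1.35 (SE 0.530, limma adjusted p = 0.301), or 0.70 without KO 64. Its WT mean, too, was under 1 FPKM.

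**Figure D2:**
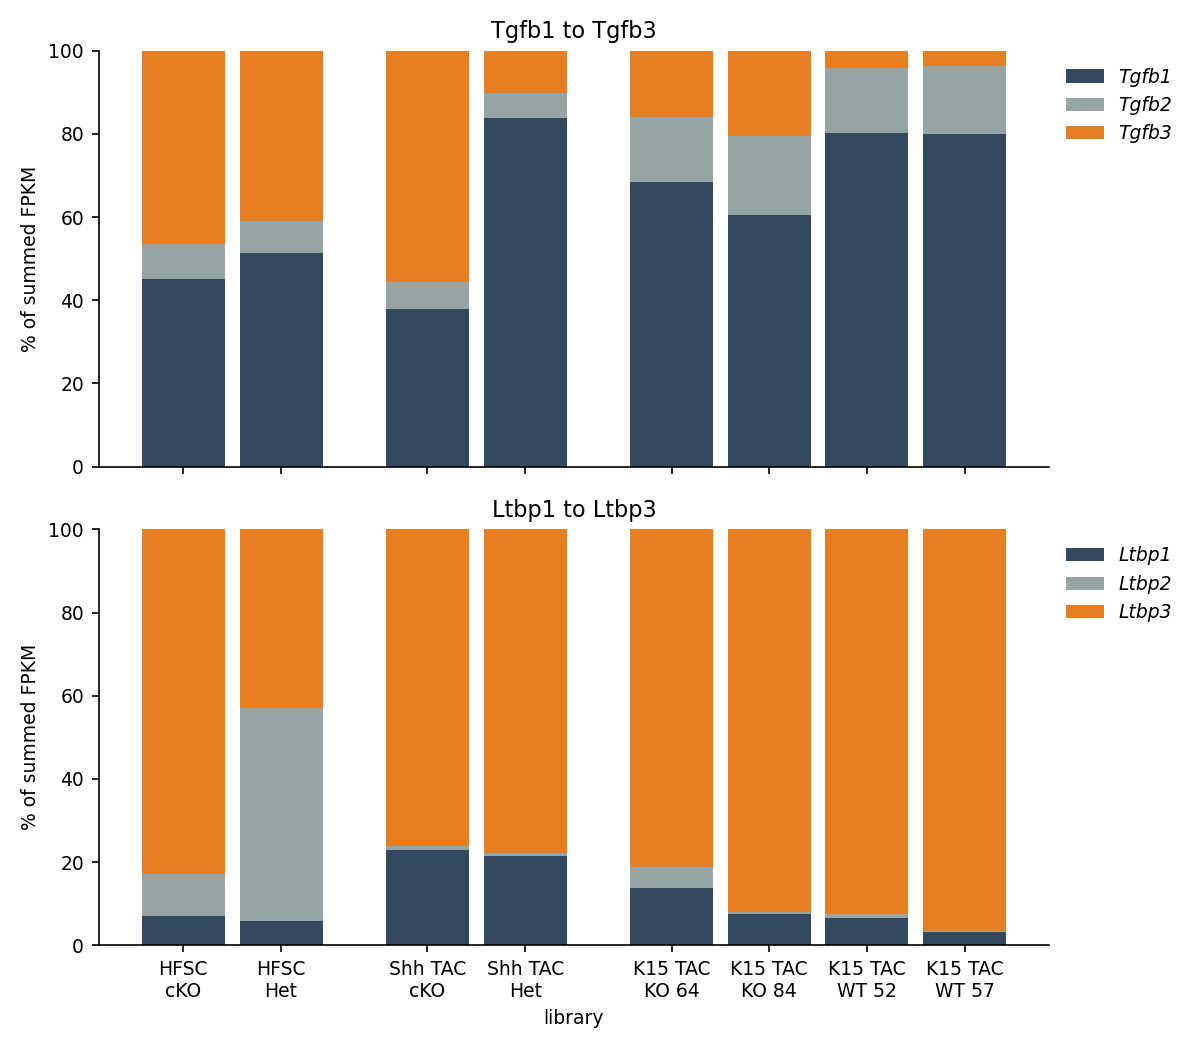
Share of each gene in the summed FPKM of the 3 ligand genes (top) and the 3 binding protein genes (bottom), in percent, 1 bar per library with deleted libraries left of their controls. Tgfb3 holds 55.7% of the ligand sum in Shh-CreER cKO and 10.1% in Het TACs, and Ltbp2 holds 10.01% of the binding protein sum in cKO and 51.2% in Het HFSCs.

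The target genes were among the most abundant transcripts of the bulge cells and were lower there in cKO. In HFSCs, Ctgf was at 310 FPKM in cKO and 559 FPKM in Het. Cyr61 was at 248 FPKM in cKO and 612 FPKM in Het, so that Het held 2.47 times the cKO level. Tgfbi was at 380 FPKM in cKO and 706 FPKM in Het. All 3 target genes were thus lower in the deleted stem cells (differences -0.85, -1.30 and -0.89), although the 3 ligand genes were higher. By level, they stood at or above the percentile 97.2 of the 12205 expressed genes in cKO and 98.9 in Het HFSCs.

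In TACs the targets stood lower in rank and differed in direction. Ctgf was at 35.3 FPKM in Shh-CreER cKO and 6.58 FPKM in Het TACs, a ratio of 5.36, with a percentile among expressed genes of 74.3 in cKO and 29.4 in Het. In K15-CrePGR TACs, Ctgf (mm9 chromosome 10, 24269246 to 24318489, an interval shared with Gm15270 and Gm6893) was at 20.4 FPKM in KO 64 and 16.4 FPKM in KO 84, against 4.64 FPKM in WT 52 and 3.39 FPKM in WT 57. Both KO libraries were close to each other and far above both WT libraries, with means of 18.4 ± 2.86 FPKM in KO and 4.01 ± 0.884 FPKM in WT (SD, n = 2 each). The difference was 1.96 (SE 0.213, limma adjusted p = 0.0866). Ctgf and Tgfb3 were the only ones of the 9 genes at least 2-fold higher in both TAC tables, as were 1.16% of the 10007 genes measured in all 3 tables. Tgfb3 is among those genes only through its K15-CrePGR KO values.

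Cyr61 was at 72.3 FPKM in Shh-CreER cKO and 59.3 FPKM in Het TACs. In K15-CrePGR TACs, Cyr61 (mm9 chromosome 3, 145309934 to 145312949) was at 110.9 FPKM in KO 64 and 29.2 FPKM in KO 84, against 21.4 FPKM in WT 52 and 10.3 FPKM in WT 57. KO 64 stood apart here at 3.80 times KO 84, which was not far above WT 52 (difference 1.87, SE 0.735, limma adjusted p = 0.30, and 0.93 without KO 64). Tgfbi was at 14.9 FPKM in Shh-CreER cKO and 22.3 FPKM in Het TACs. In K15-CrePGR TACs, Tgfbi (mm9 chromosome 13, 56710919 to 56740923) was at 50.8 FPKM in KO 64 and 15.4 FPKM in KO 84, against 6.56 FPKM in WT 52 and 1.41 FPKM in WT 57. Its KO libraries differed 3.31-fold and its WT libraries by more, so the largest K15-CrePGR difference of the 9 genes was also the least precise (difference 2.77, SE 0.806, limma adjusted p = 0.230, and 1.94 without KO 64).

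**Figure D3:**
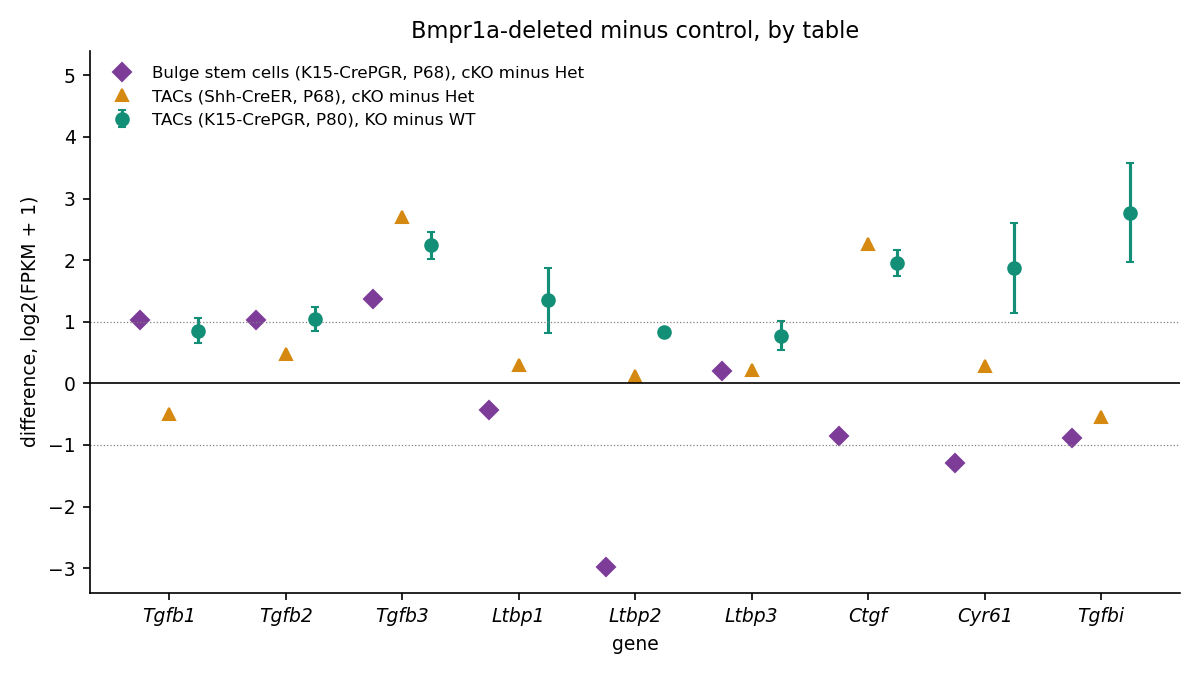
Deleted minus control difference of each gene on the log2(FPKM + 1) scale in the 3 tables; diamonds and triangles are single library pairs, circles are means of 2 KO minus 2 WT libraries with limma's standard error (Ltbp2, below the filter, has none), and dotted lines mark 2-fold. The bulge diamonds are above 0 for the ligands and Ltbp3 and below 0 for the remaining 5 genes, while all K15-CrePGR circles are above 0.

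In counts, 3 of the 9 genes were at least 2-fold higher in cKO HFSCs (Tgfb1, Tgfb2 and Tgfb3), where 5.92% of all genes past the filter of 1 FPKM were. At least 2-fold lower were 2 of the 9 (Ltbp2 and Cyr61), where 4.60% of all genes were. In Shh-CreER TACs 2 of the 8 past the filter were at least 2-fold higher (Tgfb3 and Ctgf), against 2.67% of all genes, and 0 were at least 2-fold lower, against 2.77%. In K15-CrePGR TACs all 8 tested members were higher in KO, against 47.3% of all loci, and 0 passed limma's adjusted threshold, which 0.0663% of all loci did. At an unadjusted p under 0.05, 6 of the 8 tested were higher (all but Ltbp1 and Cyr61), against 10.3% of all loci, and 6 of the 8 were at least 2-fold higher, against 10.1%. All 8 had both KO libraries above both WT libraries, against 26.8% of all loci, while Ltbp2, outside the test, overlapped. Without KO 64, 4 of the 8 were at least 2-fold higher, against 7.35% of all loci, and the members' median was 0.99. The median difference of the members was -0.44 in HFSCs (all genes 0.05), 0.29 in Shh-CreER TACs (all genes 0.01, 8 members) and 1.61 in K15-CrePGR TACs (all loci -0.03, 8 members). Tgfb3 and Ltbp1 passed the K15-CrePGR filter only through their KO values. This limits what the K15-CrePGR counts and median show, and the patterns across tables that include them.

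Across the tables, which share no libraries, Tgfb2, Tgfb3 and Ltbp3 were higher in the deleted libraries of all 3, a pattern of 16.7% of the 10007 genes measured in all of them. Ltbp1, Ctgf and Cyr61 were lower in cKO HFSCs and higher in both deleted TAC tables, a pattern of 15.4% of those genes. Ltbp2 was also lower in cKO HFSCs but under the filter in both TAC tables, so this share does not cover it. Its K15-CrePGR groups overlapped. The order of levels also differed. In HFSC Het, Tgfbi, Cyr61 and Ctgf came first, then Ltbp2 and Ltbp3, and Tgfb2 came last. In cKO the order began with Tgfbi, Ctgf and Cyr61, and Tgfb3 and Tgfb1 stood above Ltbp2. In Shh-CreER TACs Cyr61 came first in both libraries; Ctgf came next in cKO, but in Het it stood below Tgfb1, Tgfbi and Ltbp3. In the K15-CrePGR KO libraries Cyr61 (70.1 ± 57.8 FPKM), Tgfbi (33.1 ± 25.1 FPKM) and Ltbp3 (32.7 ± 9.37 FPKM) overlapped each other (SD, n = 2), although Cyr61 was the highest in each library. In the WT libraries Cyr61 (15.9 ± 7.88 FPKM) overlapped both Ltbp3 (18.3 ± 0.760 FPKM) and Tgfb1, Tgfbi (3.98 ± 3.64 FPKM) overlapped both Ctgf and Tgfb2 (2.53 ± 0.408 FPKM), and Ltbp1 overlapped Tgfb3.

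KO 64 differed from the other K15-CrePGR libraries in its markers of other cells. The 8 fibroblast markers summed to 1592 FPKM in KO 64 and 489.7 FPKM in KO 84, against 414 FPKM in WT 52 and 439 FPKM in WT 57, with none at 0. The collagen gene Col1a1 alone was at 294 FPKM in KO 64 and 46.4 FPKM in KO 84, against 36.8 FPKM in WT 52 and 10.5 FPKM in WT 57. The 8 immune markers summed to 951 FPKM in KO 64 and 163 FPKM in KO 84, against 109 FPKM in WT 52 and 27.1 FPKM in WT 57; Cd207 was at 0 in KO 84, WT 52 and WT 57. The 7 smooth muscle markers summed to 136 FPKM in KO 64 and 78.7 FPKM in KO 84, against 24.3 FPKM in WT 52 and 21.7 FPKM in WT 57, with none at 0. Tgfbi, Cyr61, Ltbp1 and Ltbp2 were likewise highest in KO 64, at 3.11 or more times KO 84. Ltbp3, Tgfb1 and Ctgf were also highest in KO 64, at 1.51, 1.34 and 1.25 times KO 84. Tgfb2 and Tgfb3 were slightly higher in KO 84. Of the 8 tested members, 6 were higher in KO 64 than in KO 84, against 44.3% of all loci. The part of these other cells in the K15-CrePGR differences was not tested. In HFSCs the immune markers summed to 124.5 FPKM in cKO and 310 FPKM in Het, with none at 0. The smooth muscle markers summed to 96.2 FPKM in cKO and 11.8 FPKM in Het, with Des at 0 in cKO. That sum was mostly Myl9 (48.2 FPKM in cKO and 8.49 FPKM in Het), Tagln and Acta2. Myh11 was at 0.0892 FPKM in cKO and 0.0490 FPKM in Het, and Actg2 at 0.0483 FPKM in cKO and 0.0138 FPKM in Het. In Shh-CreER TACs the skeletal muscle markers summed to 31.35 FPKM in cKO and 153.5 FPKM in Het. The smooth muscle markers there summed to 32.4 FPKM in cKO and 55.8 FPKM in Het. Melanocyte markers, mostly Dct, summed to 25.3 FPKM in cKO and 95.6 FPKM in Het. Higher in cKO were the fibroblast sum (991 FPKM, Het 842 FPKM) and the endothelial sum (50.4 FPKM, Het 39.5 FPKM). The part of these markers in the HFSC and Shh-CreER differences was not tested either.

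**Figure D4:**
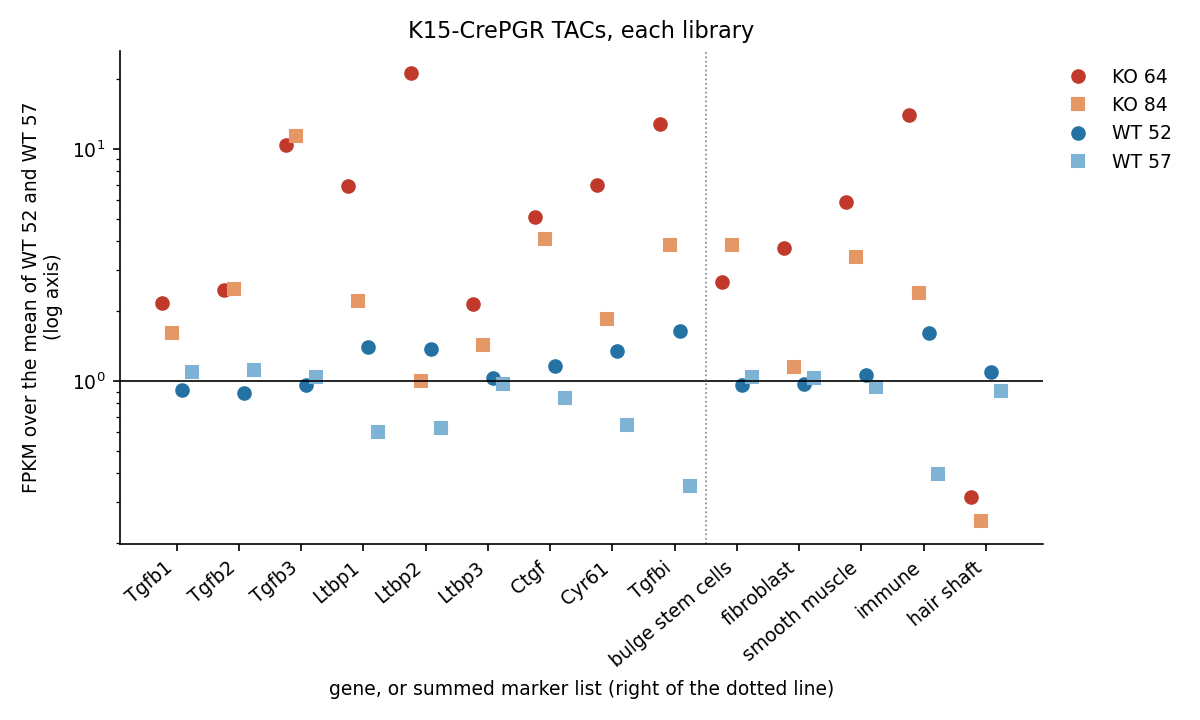
K15-CrePGR TAC libraries: FPKM of each gene, and of 5 summed marker lists right of the dotted line, divided by the mean of WT 52 and WT 57, on a log axis. Tgfb3 lies at 10.3 (KO 64) and 11.3 (KO 84) times the WT mean, whereas Tgfbi lies at 12.8 (KO 64) and 3.86 (KO 84) the immune marker sum at 13.97 (KO 64) and 2.39 (KO 84), and the bulge marker sum at 2.67 (KO 64) and 3.86 (KO 84).

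Genes with the most similar pattern were sought among 7394 genes whose mean reached 5 FPKM in every table, by the root mean square (RMS) difference of their deviations from the table mean on the log2(FPKM + 1) scale over 8 libraries. For Tgfb3 these were Lrig1, a marker of isthmus stem cells (RMS difference 0.184), Lgals9, which encodes galectin-9 (0.207), and the matricellular gene Smoc2 (0.278). For Ctgf they were the kallikrein protease gene Klk7 (0.231), the semaphorin gene Sema3c (0.278) and Nbl1, which encodes a BMP antagonist (0.298). For Tgfbi they were the MHC class II genes H2-Aa (0.233) and H2-Ab1 (0.321) and the transcription factor gene Klf2 (0.363). The nearest gene to Cyr61 was the epidermal keratin gene Krt10 (0.162), that to Tgfb1 was Rnf130 (0.0652), that to Tgfb2 was Ckb (0.0794) followed by Furin (0.0949), that to Ltbp1 was Slc29a1 (0.130) and that to Ltbp2 was Ppap2b (0.343).

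Of 11 measured receptor and Smad genes in HFSCs, 0 were at least 2-fold higher (5.92% of all genes) and 1 was lower (4.60%), the inhibitory Smad gene Smad7 (4.38 FPKM in cKO and 10.4 FPKM in Het), with a list median of -0.07. Smad3, a transducer of TGF-beta, was at 7.66 FPKM in cKO and 5.16 FPKM in Het HFSCs, and the endothelial type I receptor gene Acvrl1 was at 5.42 FPKM in cKO and 7.88 FPKM in Het. In Shh-CreER TACs 1 of 12 was at least 2-fold higher (2.67% of all genes), the co-receptor gene Tgfbr3 (6.08 FPKM in cKO and 2.06 FPKM in Het, named after its values were seen). There Tgfbr2, the ligand-binding receptor, was at 17.4 FPKM in cKO and 10.8 FPKM in Het, Smad7 at 13.99 FPKM in cKO and 26.8 FPKM in Het, and Smad3 at 13.8 FPKM in cKO and 11.2 FPKM in Het. In K15-CrePGR TACs 0 of 12 passed the test, and 4 were at least 2-fold higher (10.1% of all loci), a count of 1 without KO 64 (7.35%). One of the 4, Tgfbr3, passed the filter only through its KO values. Tgfbr2 was at 18.1 FPKM in KO 64 and 4.53 FPKM in KO 84, against 2.30 FPKM in WT 52 and 2.68 FPKM in WT 57 (limma adjusted p = 0.307). The entry that joins Eng, a co-receptor, with Ak1 was at 28.8 FPKM in KO 64 and 17.5 FPKM in KO 84, against 5.83 FPKM in WT 52 and 8.07 FPKM in WT 57 (limma adjusted p = 0.142). Smad3 was at 13.9 FPKM in KO 64 and 21.4 FPKM in KO 84, against 9.30 FPKM in WT 52 and 15.2 FPKM in WT 57, with overlapping groups (limma adjusted p = 0.463).

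Of the genes that store latent TGF-beta or free it, 14 of 17 measured were higher by any amount in cKO HFSCs (54.2% of all genes), 19 of 21 in Shh-CreER cKO TACs (51.2%) and 20 of 20 in K15-CrePGR KO TACs (47.3%), and none of the K15-CrePGR differences passed the test. In HFSCs 6 of 17 were at least 2-fold higher (5.92% of all genes) and 0 lower (4.60%), with a median of 0.72 (all genes 0.05); one of the 6, Dcn, passed the filter only through its cKO value. Bgn, a matrix proteoglycan that binds TGF-beta, was at 149 FPKM in cKO and 2.65 FPKM in Het, Mmp2, a matrix metalloproteinase, at 43.98 FPKM in cKO and 12.4 FPKM in Het, and Bmp1, a procollagen protease that also cleaves Ltbp1, at 29.7 FPKM in cKO and 9.91 FPKM in Het. In Shh-CreER TACs 0 of 21 differed 2-fold (2.67% of all genes were higher and 2.77% lower), with a median of 0.29. Largest among those averaging 5 FPKM or more were Mmp14, a membrane-bound metalloproteinase (103.5 FPKM in cKO and 56.2 FPKM in Het), Furin, which cleaves the TGF-beta precursor (57.1 FPKM in cKO and 33.0 FPKM in Het), and Itgb5, a partner chain of alpha v integrin (124 FPKM in cKO and 72.8 FPKM in Het). In K15-CrePGR TACs 0 of 20 passed the test, with 18 above both WT libraries in both KO libraries (26.8% of all loci) and 13 at least 2-fold higher (10.1%, median 1.15), a count of 9 without KO 64 (7.35%). Of these 20 genes, 3 passed the filter only through their KO values, and 2 of the 3 are among the 13. Bgn was at 119 FPKM in KO 64 and 74.6 FPKM in KO 84, against 16.7 FPKM in WT 52 and 20.5 FPKM in WT 57 (limma adjusted p = 0.0917). Thbs1, a matrix protein able to activate latent TGF-beta, was at 63.0 FPKM in KO 64 and 23.9 FPKM in KO 84, against 8.77 FPKM in WT 52 and 5.10 FPKM in WT 57 (limma adjusted p = 0.172). Mmp2 was at 39.2 FPKM in KO 64 and 9.51 FPKM in KO 84, against 5.25 FPKM in WT 52 and 3.06 FPKM in WT 57 (limma adjusted p = 0.268). Several of these genes are also made by fibroblasts, whose markers were highest in KO 64 as given above.

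Among other target genes of TGF-beta, 16 of 22 were higher by any amount and 6 lower in cKO stem cells, where 54.2% of all genes were higher. In HFSCs 7 of 22 were at least 2-fold higher in cKO (5.92% of all genes), 1 of them through its cKO value only, and 1 was lower (4.60%), Col1a2 (1.68 FPKM in cKO and 7.10 FPKM in Het, named after its values were seen), with a median of 0.60. Pmepa1, a feedback inhibitor of the pathway, was at 14.3 FPKM in cKO and 2.94 FPKM in Het, and Tagln, an actin-binding protein, was at 23.2 FPKM in cKO and 1.72 FPKM in Het. Tagln is also a smooth muscle marker. In Shh-CreER TACs 2 of 22 were at least 2-fold higher (2.67% of all genes) and 2 lower (2.77%), with a median of 0.03. Lower were Pmepa1 (4.39 FPKM in cKO and 10.9 FPKM in Het) and the cell cycle inhibitor Cdkn1a (65.1 FPKM in cKO and 167 FPKM in Het), and higher were Tsc22d1 (327 FPKM in cKO and 154.5 FPKM in Het), a TGF-beta-stimulated gene, and the anchoring fibril collagen Col7a1 (5.75 FPKM in cKO and 1.28 FPKM in Het, named after its values were seen). In K15-CrePGR TACs 0 of 22 passed the test and 9 were at least 2-fold higher (10.1% of all loci, median 0.57), a count of 8 without KO 64 (7.35%); 3 of the 9 passed the filter only through their KO values. The collagen gene Col1a2 was at 276 FPKM in KO 64 and 45.7 FPKM in KO 84, against 40.6 FPKM in WT 52 and 10.7 FPKM in WT 57 (limma adjusted p = 0.343), while Tagln was at 37.8 FPKM in KO 64 and 21.3 FPKM in KO 84, against 9.03 FPKM in WT 52 and 6.42 FPKM in WT 57 (limma adjusted p = 0.142). Col1a1, given above, had limma adjusted p = 0.325.

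The other CCN genes and YAP/TAZ-TEAD genes had medians of -0.25 in HFSCs (17 measured), 0.20 in Shh-CreER TACs (18 measured) and 0.51 in K15-CrePGR TACs (17 measured). In HFSCs 2 were at least 2-fold lower (4.60% of all genes), Amotl2, an angiomotin family gene and YAP target (14.5 FPKM in cKO and 33.2 FPKM in Het), and the transcription factor gene Tead4 (2.75 FPKM in cKO and 8.73 FPKM in Het), and 1 was higher (5.92%), Birc5 (28.1 FPKM in cKO and 5.44 FPKM in Het), which is also a gene of dividing cells. In Shh-CreER TACs 0 of 18 differed 2-fold (2.67% of all genes were higher and 2.77% lower). Largest by the same rule were Amotl1 (27.3 FPKM in cKO and 19.1 FPKM in Het), the phosphatase gene Ptpn14 (16.9 FPKM in cKO and 12.2 FPKM in Het) and Tead2 (10.04 FPKM in cKO and 14.4 FPKM in Het), which was lower. In K15-CrePGR TACs 0 of 17 passed the test, and 2 were at least 2-fold higher with KO 64 (10.1% of all loci) and 0 without it (7.35%). Jub, which encodes the LIM protein Ajuba, was at 52.2 FPKM in KO 64 and 36.5 FPKM in KO 84, against 19.4 FPKM in WT 52 and 19.0 FPKM in WT 57 (limma adjusted p = 0.141). The CCN gene Nov, the other of these and named after its values were seen, was at 3.81 FPKM in KO 64 and 0.779 FPKM in KO 84, against 0.209 FPKM in WT 52 and 0.626 FPKM in WT 57, and it passed the filter only through KO 64. The receptor kinase gene Axl was at 37.7 FPKM in KO 64 and 37.4 FPKM in KO 84, against 18.1 FPKM in WT 52 and 20.6 FPKM in WT 57 (limma adjusted p = 0.114). Crim1, a membrane protein that binds BMPs, was at 14.2 FPKM in KO 64 and 10.8 FPKM in KO 84, against 5.39 FPKM in WT 52 and 6.63 FPKM in WT 57 (limma adjusted p = 0.171).

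**Figure D5:**
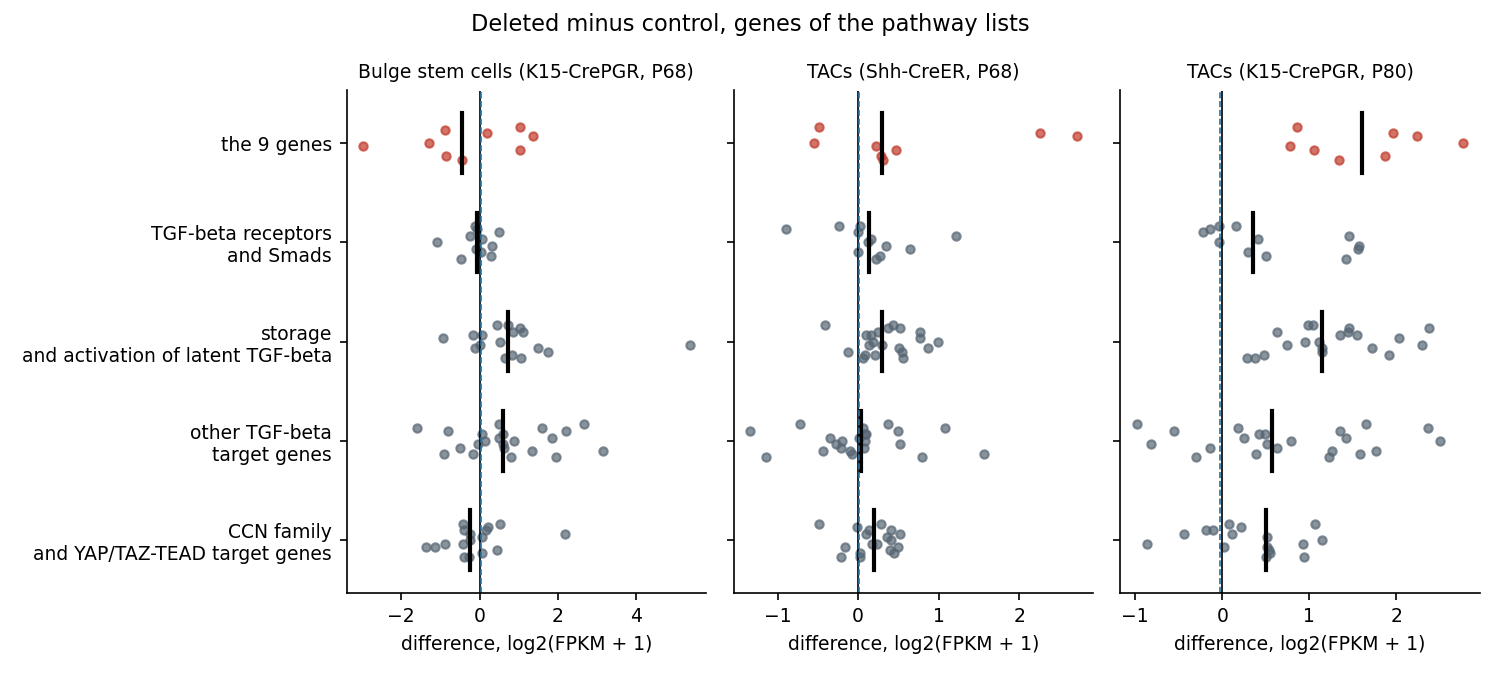
Deleted minus control differences on the log2(FPKM + 1) scale for the 9 genes (red, where they pass the 1 FPKM filter) and for 4 lists of related genes (grey), 1 panel per table; black bars are list medians, and the dashed blue line is the median of all genes. In HFSCs the storage and activation list (median 0.72) and the other targets (0.60) lie above the median of the 9 genes (-0.44), and in K15-CrePGR TACs the 8 of the 9 genes past the filter have a median of 1.61 (0.99 without KO 64).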

How the data were processed

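RNA sequencing of 8 mouse libraries was deposited as 3 tables of FPKM, with 1 column per library, made by the authors with TopHat and Cufflinks on build mm9, per the submitters' processing notes; tool versions and further scaling are not stated there. Unnamed loci (8904 entries, between 78.4% and 79.0% of the summed FPKM of the K15-CrePGR TAC libraries) were left out. Summed FPKM ranged from 474109 to 649180 in the smaller tables and from 3791914 to 4641743 in the K15-CrePGR table. Depth is unknown; the commonest ratio of values under 0.3 FPKM, shared by 142 to 399 genes per pair, gave relative depths of 0.854 (cKO over Het, HFSC), 1.00 (cKO over Het, Shh-CreER) and 0.911 to 1.13 (relative to WT 52).

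Where a symbol had several entries, that with the highest mean was used. Genes averaging 1 FPKM or more in a table were compared as log2(FPKM + 1), which understates changes of low genes. The K15-CrePGR table was tested with limma 3.58.1 in R 4.3.3 (two-sided, intensity trend, Benjamini-Hochberg adjustment over 13565 loci, threshold 0.05), a procedure also tested on simulated data. The labels do not say that libraries 52, 57, 64 and 84 are separate animals, and p-values reflect the spread among these libraries alone, which may be technical. With 1 library per genotype, the other tables have no test. Up to 3 genes per list and table with the largest difference and a mean of at least 5 FPKM were named. One gene that this rule names is not reported here. The members and lists were chosen with earlier results of these data known. Alternatives were other pseudocounts, filters and scalings, no trend, summed entries and each library left out.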

Additional observations from a re-analysis of the deposited data

Results flagged for a closer look

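The sign of the difference between deleted and control libraries was opposite in a pair of tables for 5 of the genes past the filter of 1 FPKM in both tables, with every KO library outside the range of the WT libraries where the K15-CrePGR table was involved; these contrasts between tables were not tested, since 2 of the tables hold 1 library per genotype. Values are the difference in the later-named table minus that in the first, on the log2(FPKM + 1) scale. Between HFSCs and Shh-CreER TACs they were 3.11 for Ctgf, 1.58 for Cyr61, 0.74 for Ltbp1 and -1.52 for Tgfb1. Between HFSCs and K15-CrePGR TACs they were 3.66 for Tgfbi, 3.17 for Cyr61, 2.81 for Ctgf and 1.78 for Ltbp1. Between Shh-CreER TACs and K15-CrePGR TACs, both from hair bulbs, they were 3.32 for Tgfbi and 1.35 for Tgfb1. The K15-CrePGR TAC table differs from both others in its control label (WT, not Het) and postnatal day (80, not 68). It also lists 45930 entries with 8904 unnamed, where each of the others lists 22958 entries with 0 unnamed. The Shh-CreER table differs from both others in its Cre line. For Tgfbi the K15-CrePGR difference itself was 2.77, and 1.94 without KO 64.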

How the results depend on the processing

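No difference changed sign under the alternatives that covered the gene. Ltbp2 was covered by none in Shh-CreER TACs. In K15-CrePGR TACs it was covered only without the filter and with summed entries, so not with a library left out. In HFSCs the count of members at least 2-fold higher was 1 in place of 3 with a pseudocount of 5, with libraries scaled to the same median and with quantile normalization, since Tgfb1 and Tgfb2 lay close to the line; with quantile normalization 4 in place of 2 were at least 2-fold lower, as Ctgf (-1.03) and Tgfbi (-1.01) crossed it. In the K15-CrePGR table a filter of 5 FPKM left 5 members, all higher in KO and 3 of them at least 2-fold. No member passed the adjusted threshold under any alternative, with adjusted p from 0.0679 to 0.652 for Tgfb3 and for Ctgf and up to 0.789 for the others. Leaving out 1 library at a time gave 4 to 8 members at least 2-fold higher, 4 to 8 with an unadjusted p under 0.05, and differences of 2.18 to 2.30 for Tgfb3 and 1.78 to 2.14 for Ctgf, but 0.93 to 2.82 for Cyr61, 0.70 to 1.99 for Ltbp1 and 1.94 to 3.601 for Tgfbi. Over all loci, 5 higher and 4 lower passed; these counts were 13 higher and 8 lower with a pseudocount of 0.1, 3 higher with a pseudocount of 5, 2 higher with no filter, 9 higher with a filter of 5 FPKM and 3 higher without the trend. With 1 library left out they ranged from 0 to 18 higher and from 0 to 7 lower, with 0 of either where WT 52 or WT 57 was left out; the lone library is then assumed to vary like the others. The cause of these shifts was not tested. List counts without KO 64 were added after the data were seen. No paired analysis was possible because the groups compared share fewer than 2 replicate numbers. The limits are 1 library per genotype in 2 tables, 2 in the third, unknown depth, and sex markers that differ with the genotype in the HFSC pair. In the K15-CrePGR table the sex markers set WT 52 apart from the other libraries.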
